A study of Mus musculus with 55 samples.

Results

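The 37 genes described here encode the histone deacetylases, the sirtuins and the subunits of the corepressor complexes that carry class I deacetylases to chromatin. They were taken by name from 47606 genes per table. They comprise 4 class I deacetylases, 4 class IIa, 3 class IIb and class IV, 7 sirtuins, 5 subunits of NuRD, 2 histone-binding proteins shared by NuRD and Sin3, 4 Sin3 subunits, 4 CoREST subunits and 4 NCoR subunits. All 37 were found in both tables under an Ensembl ID that carries the same symbol in a name table, and all 37 passed the filter on low values in both hosts.

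BBN963 is a mouse bladder cancer line, and every tumour was grown from it. Per the study's design text, cells were injected under the skin of C57BL/6 mice, called B6 here, and entinostat was given in chow at 12 mg/kg from a tumour volume of 200 mm3. The B6 tumours fell into baseline (n = 4), vehicle (n = 6) and entinostat (n = 5) groups, and 1 further entinostat tumour with an RNA label was not analysed here. The second host was NSG, a strain that lacks T, B and NK cells, with baseline, vehicle (Non-Treatment in the sample titles) and entinostat tumours (n = 5 each). The labels give no dose or tumour volume for NSG mice, and no genotype or age for any mouse. Entinostat tumours in B6 mice were collected at 100 mm3, whereas the volume at collection of the other groups is not given, so that treatment and tumour size cannot be told apart in this contrast. The tumours carry individual numbers, and the labels do not say whether each came from a separate mouse, so the p-values measure the spread between tumours.

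Histone deacetylases remove acetyl groups from lysines of histones and other proteins, and the acetyl mark generally goes with open chromatin and active genes. HDAC1 and HDAC2 work inside the NuRD, Sin3 and CoREST complexes, whose scaffold and reader subunits choose the target genes, and HDAC3 works with NCoR and SMRT. Class IIa enzymes have little catalytic activity of their own and act as signal-controlled corepressors of MEF2 factors, and the sirtuins use NAD as a cosubstrate. Entinostat is a benzamide made to inhibit the class I deacetylases HDAC1, HDAC2 and HDAC3. The values below are mRNA levels and say nothing of enzyme activity or of histone acetylation.

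Libraries that stood apart touch several of these results. Depth, estimated from the value of 1 read, ran from 11.0 M to 51.6 M reads, lowest in NSG_Entinostat_319 and, in B6 mice, at 13.1 M in entinostat tumour 418. B6 vehicle tumours 408 and 414 resembled each other more closely than any other pair within either host. The SD of their log2 ratio over 11633 genes was 0.204, against 0.815 for the next B6 vehicle pair. The next pair of any group, NSG_Baseline_303 and NSG_Baseline_305, stood at 0.380. The difference between 408 and 414 was still 2.33 times the counting noise, which does not show that they are independent. They were kept as separate tumours in the main tests. B6 vehicle tumour 402 had the highest macrophage and fibroblast marker sums of its group, B6 vehicle tumour 424 had the highest ribosomal protein share, 16.9% of the summed values, and B6 entinostat tumour 413 held the most skeletal muscle RNA. In B6 mice the epithelial marker sum, over 10 genes, was 144759 to 628983 in vehicle and 1154 to 4953 in entinostat tumours, and all 10 genes fell. Macrophage markers, 8 genes, summed to 5186 to 42067 in vehicle and 139849 to 208662 in entinostat tumours, and fibroblast markers, 8 genes, to 2454 to 471802 and 1051670 to 1533320. Proliferation markers, 8 genes, summed to 22677 to 41044 in vehicle and 7491 to 9787 in entinostat tumours. None of the 10 epithelial markers was at 0 in any B6 tumour. Adipocyte markers summed to 155.3 to 5851 in vehicle and 35179.8 to 70588 in entinostat tumours, with 4 of 6 genes called as higher. All tested markers of endothelium (6 genes), T cells (6), B and plasma cells (4) and skeletal muscle (7) rose as well. Ribosomal protein genes made up 6.65 to 16.9% of the summed values in B6 vehicle and 4.01 to 6.96% in B6 entinostat tumours. These differences in marker levels and ribosomal share moved with the B6 entinostat contrast as a whole, and their part in the results on the 37 genes was not tested. In bulk RNA, fewer cells of a type and less RNA per cell cannot be told apart.

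In B6 mice, 17 of the 37 genes differed between entinostat and vehicle tumours (45.9%, limma, Benjamini-Hochberg adjusted p under 0.05). Of all 17053 genes tested, 56% were called. Hdac9, a class IIa corepressor, and Sirt2, a mostly cytoplasmic tubulin deacetylase, rose most, 9.15-fold higher and 3.07-fold higher. The CoREST scaffolds Rcor2 and Rcor1 and the Sin3 subunit Sap30 fell most, 5.04-fold, 2.65-fold and 2.46-fold. At least 2-fold changes were called for these 5 genes, against 39.3% of all genes. In all, 5 genes rose (29.9% of all genes did) and 12 fell (26.2% of all genes did). The median log2 fold change of the 37 was -0.32, against -0.01 over all genes, and their median size regardless of sign was 0.49, against 0.85. Entinostat and vehicle values did not overlap for 9 of the 37, or 24.3%, against 35.3% of all genes.

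This split depended on scaling. With every library scaled to an equal total, the median of all genes shifted by -0.33 on the log2 scale, and 2 of the 37 were higher and 22 lower. Those are 64.9% of the 37, against 59.9% of all genes under the same scaling, so which of the shares is larger depends on the scaling. Over all genes the share of calls that were higher went from 53.3% to 37.2%. Sirt2 and Hdac9 were the genes that stayed called as higher, whereas Hdac5 (log2 fold change 0.53, adjusted p = 0.0876), Hdac7 (log2 fold change 0.17, adjusted p = 0.543) and Chd3 (log2 fold change 0.45, adjusted p = 0.152) were no longer called. Without B6 tumours 402, 413, 418 and 424, a choice made after seeing the data, 3 genes were higher and 12 lower, 40.5% of the 37 against 49.6% of all genes. With B6 vehicle tumours 408 and 414 counted as 1, also an added alternative, 15 of the 37 (40.5%) and 53% of all genes were called.

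**Figure D1:**
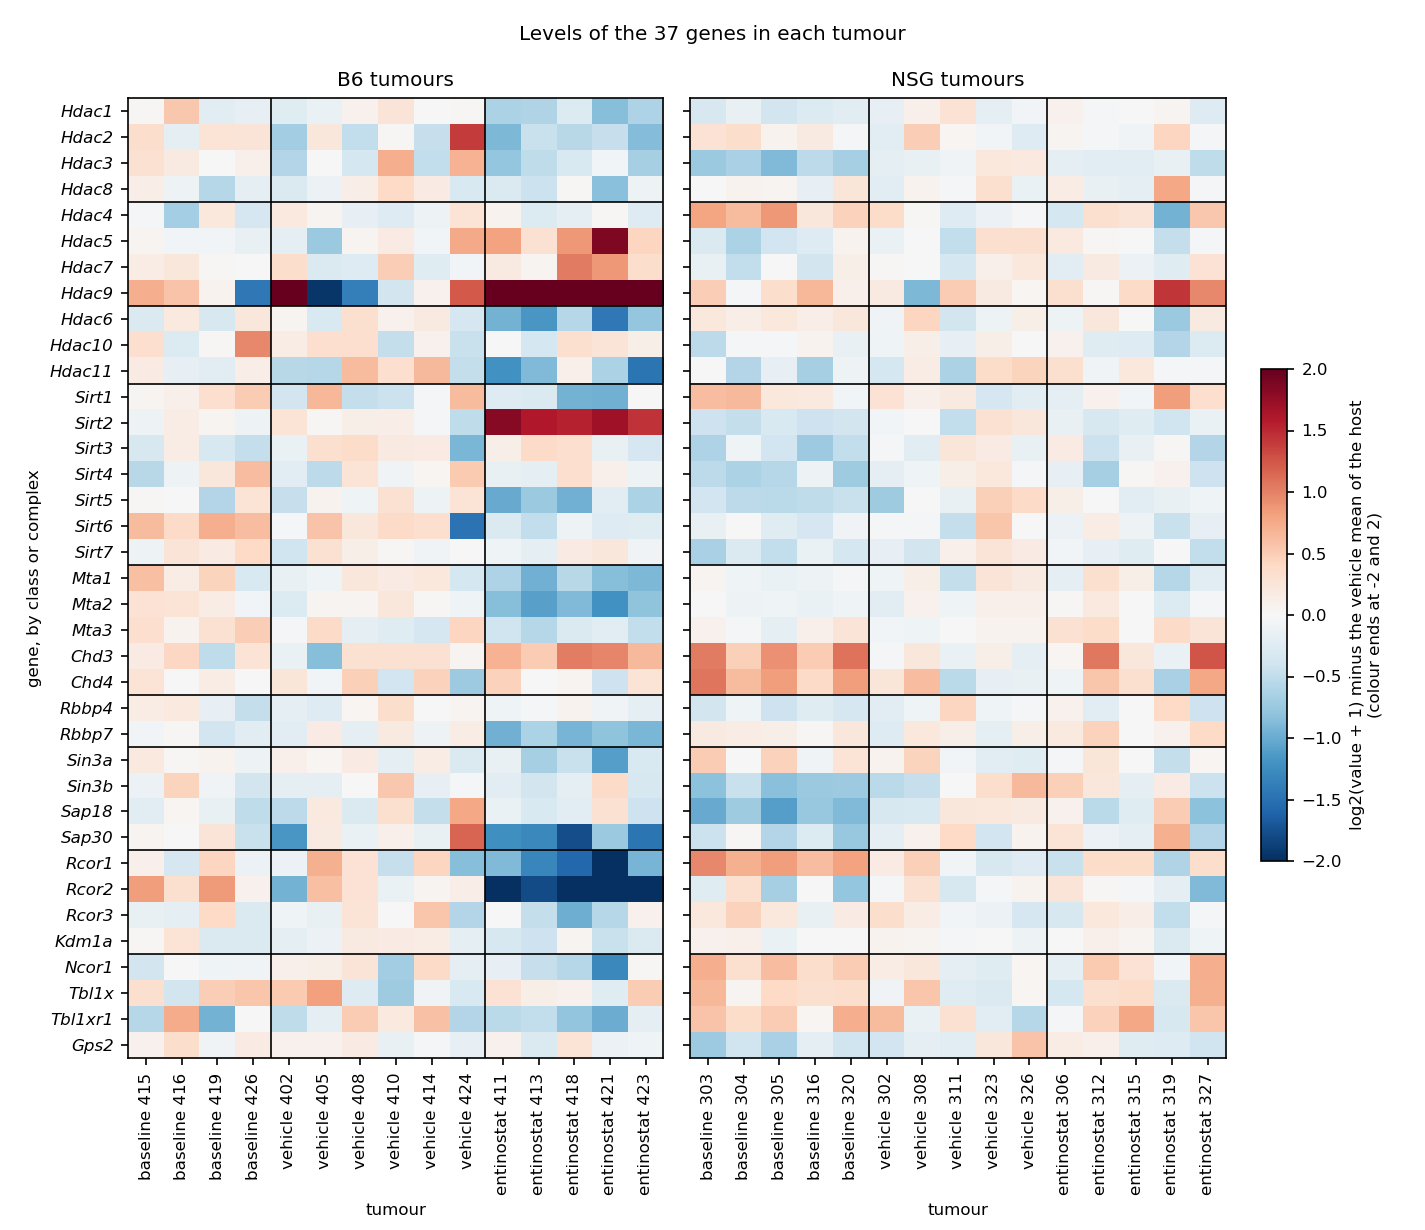
Level of each of the 37 genes (rows, grouped by class or complex) in each tumour (columns, grouped by treatment), as log2(value + 1) minus the vehicle mean of the same host, with colour ending at -2 and 2. The B6 entinostat columns are red for Hdac9 and Sirt2 and blue for Sap30, Rcor1 and Rcor2, and no such block is seen in the NSG entinostat columns.

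The promoters of the 5 genes that changed at least 2-fold are shown because these genes carry the B6 result in both directions. Each is the RefSeq sequence of build GRCm38.p6 from before to just after an annotated start, 300 bases written 5′ to 3′ on the strand of the gene. Capitals mark matches, on either strand, to 6 motifs. The GC box was searched as GGGCGG and the CCAAT box by the letters of its name. The E box was searched as CACGTG, whereas the TATA box was searched as TATAAA. The E2F motif was searched as TTTNNCGC, and the palindromic core of the MEF2 motif was searched as well. A TATA box match can lie inside a MEF2 match. The windows are chr12:34917046-34917345 on the minus strand and chr12:34528840-34529139 on the minus strand for Hdac9, chr7:28766502-28766801 on the plus strand for Sirt2, chr8:57487811-57488110 on the minus strand for Sap30, chr12:111039117-111039416 on the plus strand for Rcor1 and chr19:7267144-7267443 on the plus strand for Rcor2.
Hdac9 promoter 1: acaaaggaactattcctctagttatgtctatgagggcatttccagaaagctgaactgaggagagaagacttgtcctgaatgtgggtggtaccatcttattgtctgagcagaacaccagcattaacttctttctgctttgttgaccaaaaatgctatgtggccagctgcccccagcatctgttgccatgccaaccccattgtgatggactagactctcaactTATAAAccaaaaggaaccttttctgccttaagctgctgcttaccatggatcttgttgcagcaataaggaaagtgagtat
Hdac9 promoter 2: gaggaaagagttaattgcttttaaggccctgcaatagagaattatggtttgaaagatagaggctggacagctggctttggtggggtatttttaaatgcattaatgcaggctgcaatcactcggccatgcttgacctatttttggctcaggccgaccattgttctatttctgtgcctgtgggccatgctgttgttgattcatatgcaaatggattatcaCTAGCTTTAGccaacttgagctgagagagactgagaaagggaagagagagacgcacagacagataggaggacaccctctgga
Sirt2: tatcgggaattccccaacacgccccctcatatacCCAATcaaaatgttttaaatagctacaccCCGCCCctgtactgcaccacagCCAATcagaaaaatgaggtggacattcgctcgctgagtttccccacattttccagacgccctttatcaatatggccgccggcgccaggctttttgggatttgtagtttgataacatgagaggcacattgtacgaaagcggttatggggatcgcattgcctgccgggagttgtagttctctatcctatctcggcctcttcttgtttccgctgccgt
Sap30: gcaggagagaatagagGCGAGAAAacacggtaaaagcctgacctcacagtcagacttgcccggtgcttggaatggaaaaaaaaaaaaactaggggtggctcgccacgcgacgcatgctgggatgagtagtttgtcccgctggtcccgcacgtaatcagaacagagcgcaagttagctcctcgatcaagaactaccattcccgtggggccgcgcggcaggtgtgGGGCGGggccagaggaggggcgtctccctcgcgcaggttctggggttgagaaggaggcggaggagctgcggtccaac
Rcor1: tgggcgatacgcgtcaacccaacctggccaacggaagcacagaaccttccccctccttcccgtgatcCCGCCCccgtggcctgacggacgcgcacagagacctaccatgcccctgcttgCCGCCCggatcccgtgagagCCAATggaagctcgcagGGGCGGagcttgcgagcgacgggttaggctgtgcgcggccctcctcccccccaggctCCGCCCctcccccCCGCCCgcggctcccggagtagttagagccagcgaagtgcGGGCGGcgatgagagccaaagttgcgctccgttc
Rcor2: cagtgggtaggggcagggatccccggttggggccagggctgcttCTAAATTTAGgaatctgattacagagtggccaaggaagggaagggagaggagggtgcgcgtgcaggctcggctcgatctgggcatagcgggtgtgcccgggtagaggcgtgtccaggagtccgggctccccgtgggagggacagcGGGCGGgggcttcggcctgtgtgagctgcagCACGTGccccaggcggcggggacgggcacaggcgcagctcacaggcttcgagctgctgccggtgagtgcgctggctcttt
Both Hdac9 windows are poor in CpG, with 0 and 3, and carry no GC box, while the Rcor1 window has 31 CpG and 6 GC boxes. The Sirt2 window holds 16 CpG, Sap30 22 and Rcor2 21. A TATA box stands in the first Hdac9 window, and a match to the loose MEF2 pattern in the second Hdac9 window and in Rcor2. Between CTA and TAG the Hdac9 match reads GCTT, with G and C, whereas the Rcor2 match reads AATT. The pattern leaves these letters free, so the Hdac9 match shares only the outer letters of the motif. The Rcor2 window also holds an E box, and the Sap30 window an E2F motif. Of the 37 genes, 32 had a promoter in the table. Over 41 promoters of these genes, with any promoter of Hdac3 left out, 68.3% held a GC box, against 35.7% of 32851 promoters. Their median CpG number was 23 against 7, and their median GC content 61.7% against 52.7%. All of the 37 genes passed the filter on low values, whereas the 32851 promoters were not limited to genes that did. The sets are therefore unlike, and the part of expression in these contrasts was not tested. For the loose MEF2 pattern the shares were 9.76% and 3.69%, and for E2F 9.76% and 5.17%. They were 41.5% and 37.4% for CCAAT, 9.76% and 7.15% for the E box, and 9.76% and 13.6% for the TATA box. A motif match is a description of the letters and not of binding.

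Among the class I genes, only Hdac1 passed the test in B6 mice. Hdac1, a catalytic subunit of NuRD, Sin3 and CoREST, had values of 2127, 2178, 2724, 1820.3 and 2159.8 in the entinostat tumours and of 2796 (lowest), 3351 (median) and 3937 (highest) in vehicle tumours. The groups did not overlap (log2 fold change -0.60, SE 0.15, adjusted p = 0.00416). A copy annotated as an Hdac1 pseudogene is a separate row, at 73.0 to 153 in entinostat and 53.6 to 201 in vehicle tumours, and how reads were divided between them is not stated. For its close relative Hdac2 the entinostat values were 1639, 2243, 2097, 2226 and 1682, and vehicle values were 1891 (lowest), 2676 (median) and 8115 (highest). These groups overlapped, and the highest vehicle value belonged to tumour 424 (log2 fold change -0.65, SE 0.30, adjusted p = 0.0756). Hdac2 was called without vehicle tumour 402, which has the lowest vehicle value (log2 fold change -0.79, adjusted p = 0.032). It was also called with equal totals or quantile scaling. Hdac3, the enzyme of the NCoR complex, was at 1258, 1515, 1754, 2078 and 1367 in entinostat and 1443 (lowest), 1929 (median) and 3564 (highest) in vehicle tumours, with overlap. Its difference did not pass (log2 fold change -0.46, SE 0.24, adjusted p = 0.114), but did without tumour 402 (log2 fold change -0.58, adjusted p = 0.0475) or with equal totals. Hdac8, which works without these complexes, was at 233, 211, 290.3, 159.6 and 265 in entinostat and 231 (lowest), 288 (median) and 377 (highest) in vehicle tumours. The groups overlapped (log2 fold change -0.32, SE 0.21, adjusted p = 0.197).

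Of the 4 class IIa genes, 3 rose in B6 entinostat tumours, where 29.9% of all genes rose. With equal totals, only Hdac9 of these 3 stayed called. Hdac9 was at 102, 198, 122, 63.2 and 123 in entinostat tumours, 2.25 (lowest), 10.5 (median) and 63.9 (highest) in vehicle tumours and 19.7, 17.6, 12.2 and 3.66 in baseline tumours. The means were 122 ± 49.0 (SD, n = 5) and 19.9 ± 23.5 (SD, n = 6) (log2 fold change 3.19, SE 0.69, adjusted p = 0.00113). The single overlap came from vehicle tumour 402, the highest vehicle value, which lay just above the lowest entinostat value. Hdac5, a corepressor exported from the nucleus on kinase signalling, was at 1443, 1021, 1505, 3018 and 1115 in entinostat tumours, highest in tumour 421, and at 495 (lowest), 828 (median) and 1404 (highest) in vehicle tumours. The groups overlapped through vehicle tumour 424 (log2 fold change 0.85, SE 0.27, adjusted p = 0.0147). Hdac7, known from endothelium and thymocytes, rose by 0.50 on the log2 scale (adjusted p = 0.047), a call lost under 18 of 27 alternatives. Hdac4, a regulator of chondrocyte and muscle genes, was not called (log2 fold change -0.12, SE 0.17, adjusted p = 0.545).

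Of the class IIb and class IV genes, 2 of 3 fell, where 26.2% of all genes fell. Hdac6, the tubulin and HSP90 deacetylase, was at 373, 322, 485, 267 and 419 in entinostat and at 568 (lowest), 753 (median) and 902 (highest) in vehicle tumours. All entinostat values lay below all vehicle values (log2 fold change -0.97, SE 0.19, adjusted p = 5.14e-04). Hdac11, the sole class IV enzyme, fell by 0.82 on the log2 scale (adjusted p = 0.0367), and its vehicle values spread from 193 to 450.0. That call was lost under 9 of 27 alternatives. Hdac10, a polyamine deacetylase, was not called (log2 fold change 0.07, adjusted p = 0.832).

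Among the 7 sirtuins, Sirt2 rose and Sirt5 fell, and the other five did not pass. Sirt2 was at 2826, 2431, 2328, 2594 and 2181 in entinostat tumours, at 564 (lowest), 844 (median) and 967 (highest) in vehicle tumours and at 747, 885, 832 and 747 in baseline tumours. Every entinostat value lay above every value of the other groups (log2 fold change 1.62, SE 0.14, adjusted p = 3.81e-07). It had the smallest adjusted p of the 37, and the call held under all 27 alternatives, with log2 fold changes between 1.29 and 1.70. Sirt5, a mitochondrial desuccinylase, was at 84.9, 102, 87.3, 146 and 109.6 in entinostat and 124 (lowest), 171 (median) and 213 (highest) in vehicle tumours (log2 fold change -0.72, SE 0.23, adjusted p = 0.016), with overlap. Without the 4 tumours that stood apart the Sirt5 call was lost (log2 fold change -0.67, adjusted p = 0.0751). For the nuclear deacetylase Sirt1 the log2 fold change was -0.49 (adjusted p = 0.114). Sirt6, which acts on chromatin at DNA breaks, had a log2 fold change of -0.28 and was called without vehicle tumour 424 (log2 fold change -0.57, adjusted p = 0.00716). The mitochondrial Sirt3 and Sirt4 and the nucleolar Sirt7 had log2 fold changes of 0.07, 0.00 and 0.00.

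NuRD couples deacetylase activity to a chromatin remodelling ATPase. Its 3 MTA scaffold genes fell in B6 entinostat tumours, where 26.2% of all genes fell, and the ATPase gene Chd3 rose. Mta2 was at 2968, 2527, 2891, 2306 and 3065 in entinostat and at 4405 (lowest), 5485 (median) and 6272 (highest) in vehicle tumours (log2 fold change -0.97, SE 0.13, adjusted p = 1.86e-05). Mta1 was at 1162, 920.0, 1212, 991 and 958 in entinostat and at 1395 (lowest), 1833 (median) and 2101 (highest) in vehicle tumours (log2 fold change -0.78, SE 0.17, adjusted p = 0.00137). Neither gene overlapped between the groups. Mta3 overlapped, at 869, 767, 933, 976 and 815 in entinostat and 903 (lowest), 1056 (median) and 1537 (highest) in vehicle tumours (log2 fold change -0.39, SE 0.16, adjusted p = 0.0456), and its call was lost under 16 of 27 alternatives. Chd3 was at 3045, 2671, 3825, 3697 and 2931 in entinostat tumours, all above the highest vehicle value of 2322 (log2 fold change 0.77, SE 0.22, adjusted p = 0.0078). Without the 4 tumours that stood apart this call was lost (log2 fold change 0.76, adjusted p = 0.0598). Chd4, the other ATPase, did not pass (log2 fold change 0.08, adjusted p = 0.783).

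The histone-binding proteins RBBP4 and RBBP7 sit in NuRD and in Sin3. Rbbp7 was at 2822, 3526, 2884, 3156 and 2901 in entinostat and at 4750.1 (lowest), 5580.0 (median) and 6218 (highest) in vehicle tumours, with no overlap (log2 fold change -0.85, SE 0.13, adjusted p = 5.60e-05). Rbbp4 stood at -0.06 on the log2 scale (95% confidence interval -0.37 to 0.25).

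In the Sin3 complex, Sap30 and Sin3a fell and the other two did not pass. Sap30, a small subunit that stabilises the complex, was at 602, 573, 413, 842 and 509 in entinostat and at 629.7 (lowest), 1394 (median) and 3171 (highest) in vehicle tumours (log2 fold change -1.30, SE 0.31, adjusted p = 0.00239). The lowest vehicle value, in tumour 402, lay below the highest entinostat value, in tumour 421. For the scaffold Sin3a the log2 fold change was -0.53 (adjusted p = 0.0114), and its paralog Sin3b -0.14 (adjusted p = 0.524). For Sap18 it was -0.16 (adjusted p = 0.574). Sap18 has a near-identical copy, Sap18b, at 322 to 747 in entinostat and 315.2 to 615 in vehicle tumours, so its values are uncertain.

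CoREST joins HDAC1 or HDAC2 to the histone demethylase LSD1, the product of Kdm1a. Rcor2 was at 83.9, 113, 73.2, 92.7 and 42.3 in entinostat tumours, 204 (lowest), 419 (median) and 593 (highest) in vehicle tumours and 705, 489, 706 and 417 in baseline tumours (log2 fold change -2.33, SE 0.29, adjusted p = 1.36e-05). Every entinostat value lay below every value of the other groups. Rcor1 was at 1328, 996, 827, 475 and 1291 in entinostat and 1351 (lowest), 2629 (median) and 4014 (highest) in vehicle tumours, also without overlap (log2 fold change -1.41, SE 0.30, adjusted p = 0.00118). The lowest vehicle value, in tumour 424, was close to the highest entinostat value. Rcor3 (log2 fold change -0.39, adjusted p = 0.179) and Kdm1a (log2 fold change -0.28, adjusted p = 0.109) did not pass. The Kdm1a gene overlaps Luzp1 by 4193 bases and Rcor3 overlaps Gm10516 by 1177 bases, and the strand setting of the counting is not given in the sources used here.

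In the NCoR complex 0 of 4 genes passed with limma, and 1 had an unadjusted p under 0.05. Ncor1, the scaffold that activates HDAC3, was at 2342, 1913, 1761, 1079.6 and 2667 in entinostat and 1629.6 (lowest), 2835 (median) and 3443 (highest) in vehicle tumours (log2 fold change -0.49, SE 0.23, adjusted p = 0.0771). The 2 groups overlapped, and tumour 421 was lowest. Ncor1 overlaps Ttc19 by 16217 bases. The WD40 subunits Tbl1xr1 and Tbl1x had log2 fold changes of -0.60 and 0.15, and Gps2, which overlaps Eif5a by 345 bases, -0.03.

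**Figure D2:**
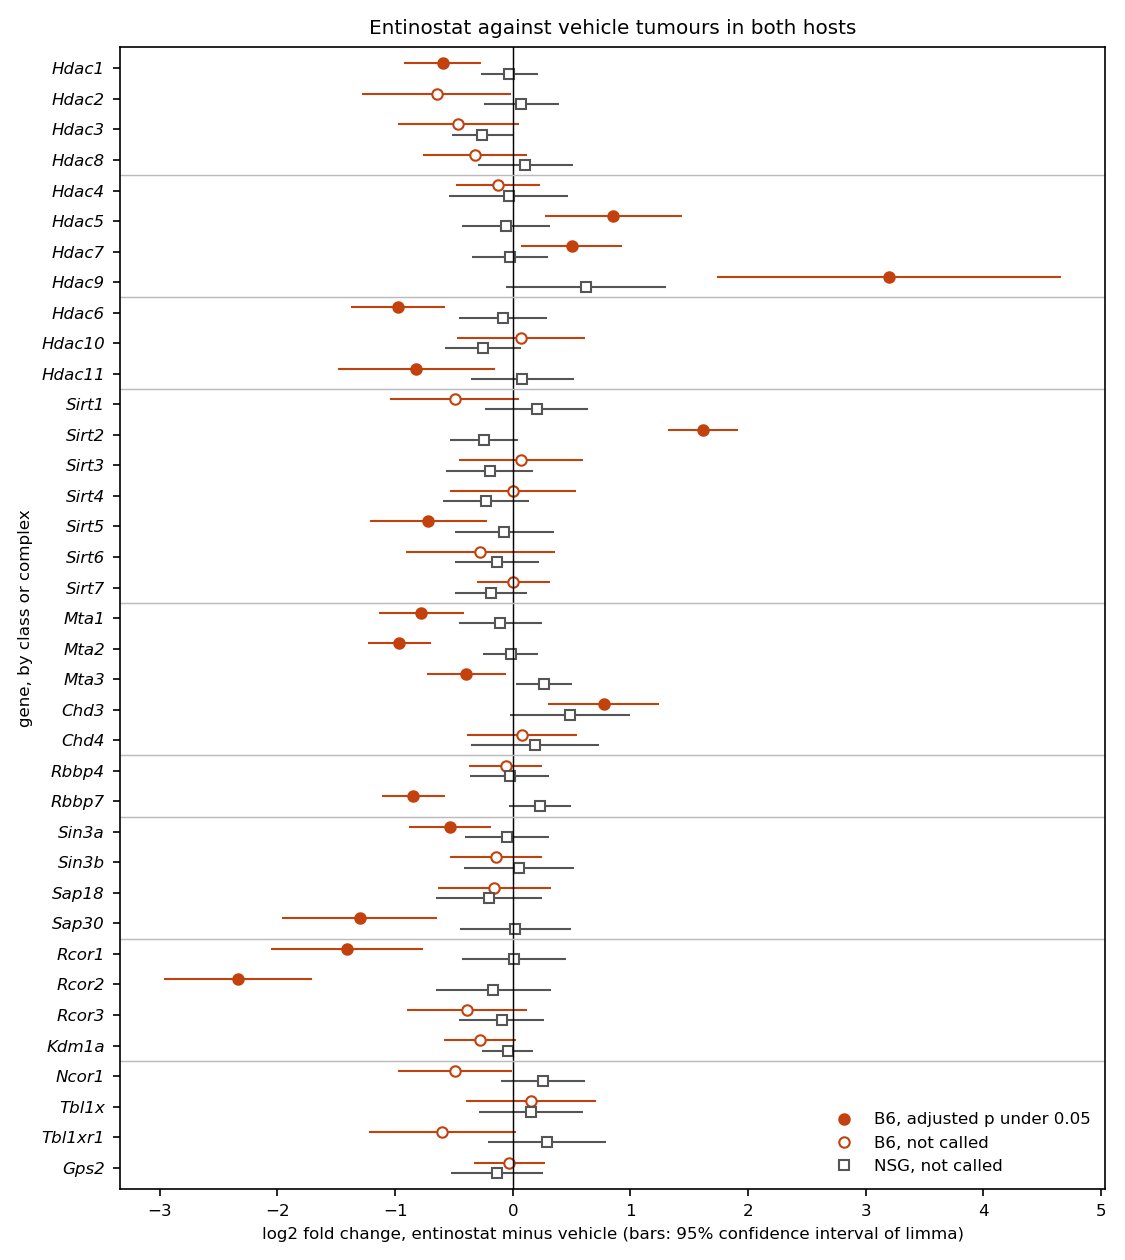
Log2 fold change of entinostat over vehicle tumours for each of the 37 genes (rows) in B6 (circles) and NSG (squares) mice, with 95% confidence intervals of limma and filled symbols where the adjusted p was under 0.05. B6 values run from -2.33 for Rcor2 to 3.19 for Hdac9, whereas all NSG values lie between -0.26 and 0.62 and none is filled.

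Against baseline tumours, which share the entinostat tumours of this contrast, 18 of the 37 genes were called in B6 mice, where 54.4% of all genes were. Of these, 4 were higher (29.1% of all genes) and 14 lower (25.3%). Hdac2 (log2 fold change -0.82, adjusted p = 0.047), Sirt1 (log2 fold change -0.74, adjusted p = 0.0384) and Sirt6 (log2 fold change -0.87, adjusted p = 0.0374) passed here, and these calls were lost under 12, 8 and 8 of 27 alternatives. The log2 fold change over baseline was -2.86 for Rcor2, -1.43 for Rcor1, 1.62 for Sirt2 and 3.21 for Hdac9. Between vehicle and baseline tumours in B6 mice, limma called 0 of the 37 and 0% of all genes. At an unadjusted p under 0.05 the numbers were 0 of the 37 and 749 of all genes.

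In NSG mice 0 of the 37 genes differed between entinostat and vehicle tumours by limma, and 0% of 17752 genes did. At an unadjusted p under 0.05 there were 2 of the 37, Hdac3 (log2 fold change -0.26) and Mta3 (0.26), and 1287 of all genes. Values of entinostat and vehicle tumours overlapped for each of the 37, and only 0.783% of all genes did not overlap. Hdac1 was at 4435, 4085, 4149, 4311 and 3494 in entinostat and 3709, 4458, 5109, 3697 and 4018 in vehicle tumours. The interval of its log2 fold change was -0.27 to 0.22. Hdac2 was at 2534, 2413, 2326, 3294 and 2396 in entinostat and 2117, 3448, 2510.3, 2347 and 2038 in vehicle tumours, and NSG_Entinostat_319 was highest among the entinostat tumours. Hdac3 was at 4122, 3974, 3962, 4172 and 3263 in entinostat and 4056, 4187, 4427, 5406 and 5323 in vehicle tumours. Hdac8 was at 264, 214, 208, 408 and 232 in entinostat and 204, 251, 231, 298 and 218 in vehicle tumours. No class I gene separated the groups.

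Sirt2 was at 1395, 1246, 1305, 1179 and 1420.2 in NSG entinostat and 1491, 1547, 1104, 1923 and 1821 in NSG vehicle tumours (log2 fold change -0.25, interval -0.53 to 0.04). Hdac9 was at 44.1, 35.5, 45.7, 95.4 and 68.7 in entinostat and 39.6, 18.3, 50.02, 39.8 and 36.1 in vehicle tumours (log2 fold change 0.62, interval -0.06 to 1.30), and the highest entinostat values belonged to NSG_Entinostat_319 and NSG_Entinostat_327. Sap30 was at 1588, 1204, 1165, 2155 and 872 in entinostat and 1162, 1396, 1734, 1006 and 1378 in vehicle tumours. The interval of its log2 fold change ran from -0.45 to 0.49. For Rcor1 the values were 1966, 3448, 3462, 1763 and 3416 in entinostat and 3005, 3709, 2564, 2149 and 2232 in vehicle tumours, and for Rcor2 871, 748, 715, 643 and 396 in entinostat and 722, 900.0, 588, 714 and 770.3 in vehicle tumours. The lower ends of their intervals were -0.43 and -0.65, above the B6 log2 fold changes of -1.41 and -2.33. In NSG mice the summed epithelial, macrophage, fibroblast and proliferation markers overlapped between entinostat and vehicle tumours, with epithelial sums of 135842 to 159839 and 103179 to 217076.

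**Figure D3:**
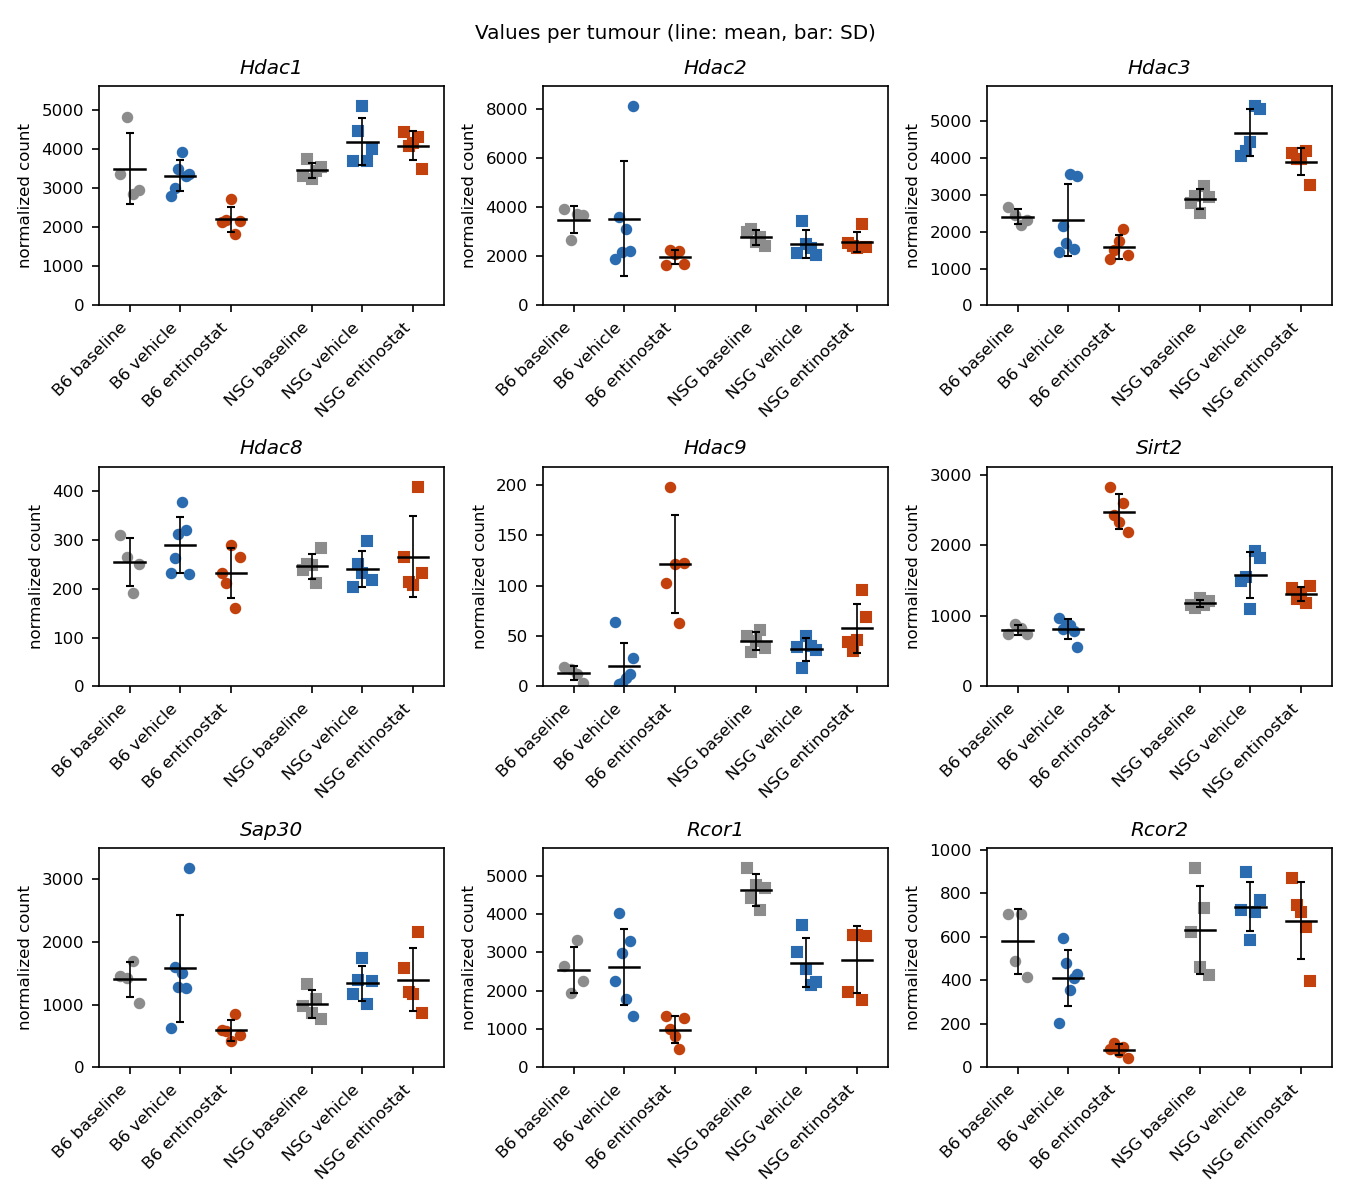
Values per tumour (deposited normalized counts) of 9 genes by host and group, with circles for B6 and squares for NSG tumours, a line at the mean and a bar for the SD. The tables of the hosts were normalized separately, so levels are compared within a host: Sirt2 and Hdac9 are highest and Sap30, Rcor1 and Rcor2 lowest in B6 entinostat tumours, and no NSG panel shows entinostat apart from vehicle.

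The difference between the hosts in the entinostat effect was tested directly, as B6 log2 fold change minus NSG log2 fold change, in 1 limma fit over the 30 libraries. Of the 37 genes, 13 were called (35.1%), where 43.5% of 16335 genes were. Sirt2 differed by 1.86 (SE 0.19, adjusted p = 1.74e-08), Hdac9 by 2.57 (SE 0.78, adjusted p = 0.00929) and Hdac5 by 0.91 (SE 0.33, adjusted p = 0.0284), all higher in B6 mice. Rcor2 differed by -2.17 (SE 0.38, adjusted p = 5.48e-05), Rcor1 by -1.42 (SE 0.38, adjusted p = 0.00401) and Sap30 by -1.32 (SE 0.40, adjusted p = 0.00861). For the NuRD genes the differences were -1.08 (SE 0.17, adjusted p = 1.07e-05) for Rbbp7, -0.95 (SE 0.15, adjusted p = 2.23e-05) for Mta2, -0.67 (SE 0.24, adjusted p = 0.0243) for Mta1 and -0.66 (SE 0.19, adjusted p = 0.00591) for Mta3. Hdac6 differed by -0.89 (SE 0.26, adjusted p = 0.00657) and Hdac1 by -0.57 (SE 0.19, adjusted p = 0.0152). Ncor1, not called in either host alone, differed by -0.75 (SE 0.29, adjusted p = 0.0371).

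The values behind the genes not yet given in NSG mice overlapped. Hdac5 was at 2403, 2119.9, 2074, 1506 and 2061 in entinostat and 1901, 2088, 1486, 2608 and 2620.2 in vehicle tumours. Hdac6 was at 1388, 1731, 1489, 889 and 1679.8 in entinostat and 1418, 2002, 1146, 1378 and 1605 in vehicle tumours. Mta2 was at 6718, 7591, 6575, 5503 and 6524 in entinostat and 5753, 7048, 6267, 7139.8 and 7086 in vehicle tumours. Mta1 was at 2729, 3859.9, 3364, 2093 and 2692 in entinostat and 2927, 3383, 2236, 3724 and 3511 in vehicle tumours, and Mta3 at 1602, 1663, 1302, 1681 and 1542 in entinostat and 1246, 1219, 1289.8, 1358 and 1352 in vehicle tumours. Rbbp7 was at 6207, 7466, 5453, 5718 and 7097 in entinostat and 4508, 6226, 5888, 4783 and 5844 in vehicle tumours. For Ncor1 the values were 3489, 5680.3, 4862, 3812 and 6542 in entinostat and 4407, 4639.5, 3494, 3368 and 4089.7 in vehicle tumours, with NSG_Entinostat_312 and NSG_Entinostat_327 highest.

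With equal totals, 21 of the 37 (56.8%) and 47.1% of all genes differed between hosts. Of the 21, 2 were higher and 19 lower in B6 mice, and the share of higher calls over all genes went from 54.8% to 32.7%. The Hdac5 difference was then lost (log2 fold change 0.51, adjusted p = 0.19), and also without B6 vehicle tumour 405, B6 entinostat tumour 421, NSG_Entinostat_319, NSG_Non-Treatment_323 or NSG_Non-Treatment_326. The Mta1 difference was lost without NSG_Entinostat_312 or NSG_Non-Treatment_311, and the Ncor1 difference under 14 of 41 alternatives. Because the drug dose and tumour volumes in NSG mice are not given, host and handling cannot be told apart.

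A common scaling factor of a library cancels in the ratio of close relatives within a tumour, apart from the pseudocount. Of 9 pairs, 4 shifted between entinostat and vehicle tumours in B6 mice and 0 in NSG mice (exact permutation tests, p-values adjusted over 18 tests). The share of other gene pairs that shift was not computed. For single genes, limma called 56% of all genes in B6 mice and 0% in NSG mice. The counts are therefore not a result particular to these pairs. The log2 ratio of Rbbp4 to Rbbp7 was 0.31 ± 0.15 (SD, n = 5) in entinostat and -0.48 ± 0.24 (SD, n = 6) in vehicle tumours of B6 mice, a difference of 0.79 (exact two-sided permutation p = 0.00216, adjusted p = 0.0195, n = 5 and 6). No value overlapped. For Rcor1 to Rcor3 the difference was -1.02 (exact two-sided permutation p = 0.00216, adjusted p = 0.0195, n = 5 and 6), and for Hdac4 to Hdac5 it was -0.98 (exact two-sided permutation p = 0.00433, adjusted p = 0.026, n = 5 and 6), both without overlap. The ratio of Hdac9 to Hdac7 moved by 2.69 (exact two-sided permutation p = 0.0108, adjusted p = 0.0487, n = 5 and 6), with overlap. Hdac1 and Hdac2 kept their ratio within the spread, with a difference of 0.05 (exact two-sided permutation p = 0.907, adjusted p = 0.921, n = 5 and 6). In NSG mice 0 pairs had an unadjusted p under 0.05, and the differences ran from -0.26 for Rbbp4 to Rbbp7 to 0.64 for Hdac9 to Hdac7. The Hdac9 to Hdac7 call was lost under 10 of 13 alternatives and the Hdac4 to Hdac5 call under 5, while those of Rbbp4 to Rbbp7 and Rcor1 to Rcor3 were each lost under 1. Without B6 entinostat tumour 421, 0 pairs were called, and without any other of the entinostat tumours 2 were. With any entinostat tumour left out, fewer rearrangements exist, which raises the smallest p that the test can give. Why the count was lower without tumour 421 than without the others was not tested.

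**Figure D4:**
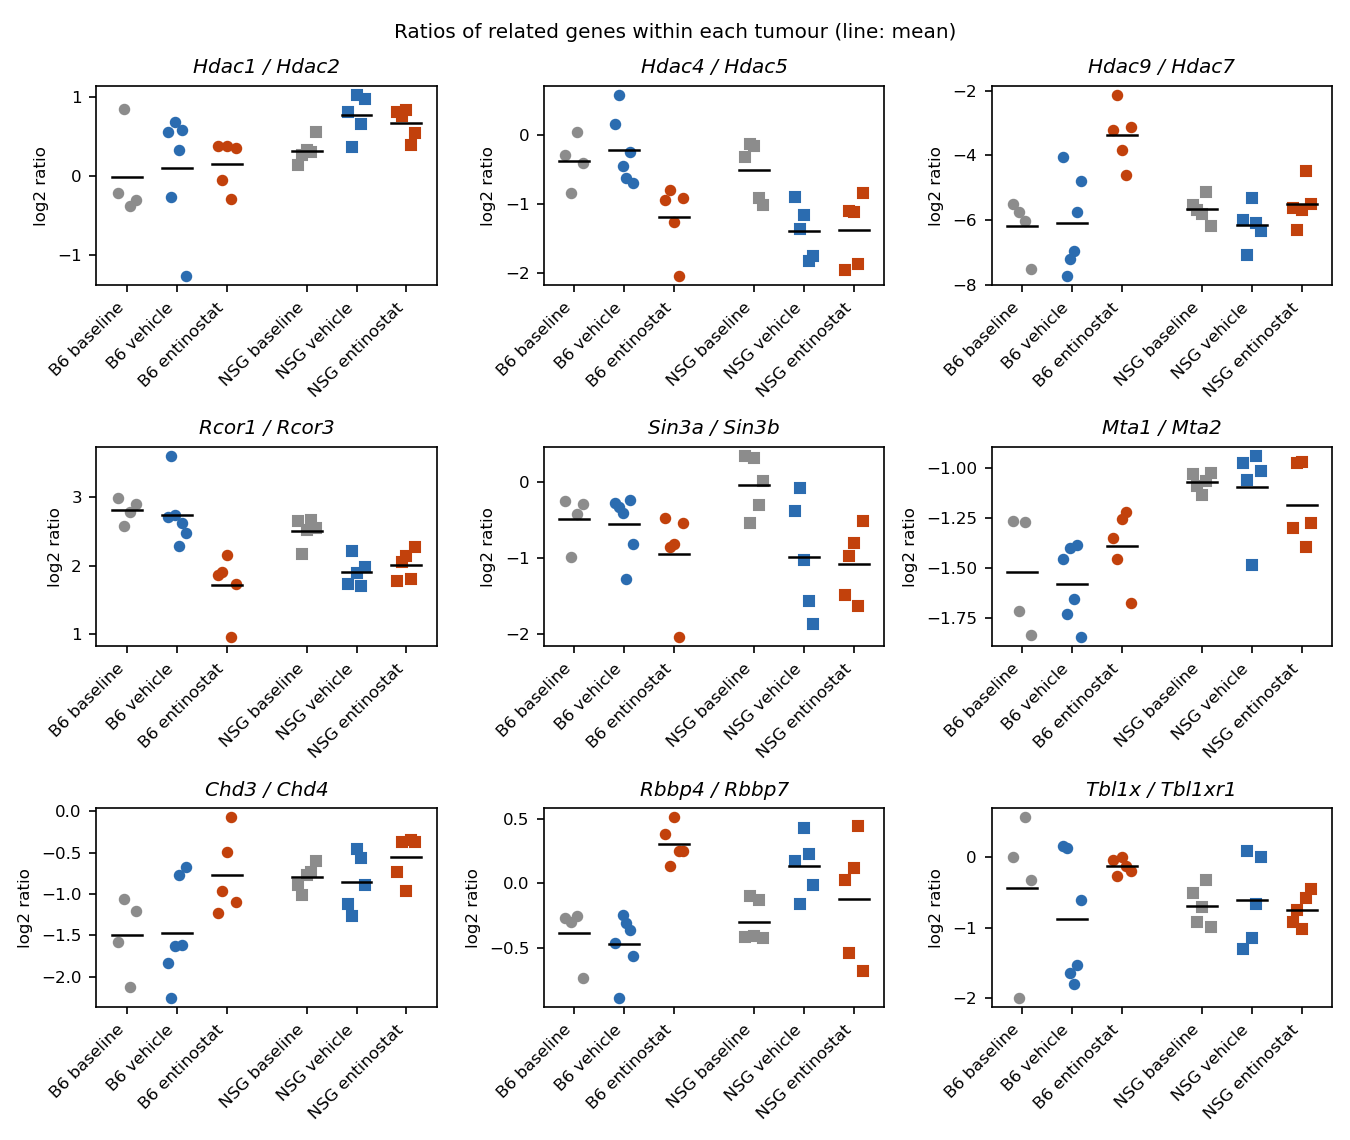
Log2 ratio of 9 pairs of related genes in each tumour, by host and group, with a line at the group mean. In B6 mice the entinostat points of Rbbp4 / Rbbp7 lie above, and those of Rcor1 / Rcor3 and Hdac4 / Hdac5 below, every vehicle point, and in NSG mice entinostat and vehicle points overlap for each pair.

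Partner genes outside the 37, in 6 lists, gave 24 of 54 tested genes called in B6 mice (44.4%), against 56% of all genes. Of these, 16 were higher and 8 lower. Among other NuRD subunits 3 of 6 passed, led by the neuronal ATPase Chd5, log2 fold change 3.61 (adjusted p = 1.14e-04), at 22.7 to 90.8 in entinostat and 0 to 7.26 in vehicle tumours. The largest fall was Cdk2ap1, log2 fold change -0.72 (adjusted p = 3.47e-04). Among other Sin3 subunits 4 of 10 passed, with Sap25, log2 fold change 1.76 (adjusted p = 0.0131), highest and the chromatin reader Ing2, log2 fold change -1.11 (adjusted p = 1.83e-04), lowest. Other CoREST subunits and Rest, the neuronal gene repressor, gave 0 of 7 with limma, and 1 at an unadjusted p under 0.05. Of the SMRT and MiDAC subunits and the repressors that recruit them 2 of 8 rose, led by Zbtb16 (PLZF), log2 fold change 3.58 (adjusted p = 8.21e-04), at 17.8 to 77.9 against 0 to 8.13.

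Of the MEF2 factors and the kinases that control class IIa enzymes, 7 of 12 rose and 1 fell, 66.7% called against 56% of all genes. Mef2c, log2 fold change 3.28 (adjusted p = 0.00124), rose most, at 826 to 2706 in entinostat and 20.5 to 622 in vehicle tumours, and the kinase Sik1, log2 fold change -0.73 (adjusted p = 0.0169), fell. Of the genes for supply and use of NAD, the sirtuin cosubstrate, 5 of 11 rose and 2 fell, 63.6% called against the same 56%. Bst1 (CD157), an NAD-consuming enzyme of myeloid and stromal cells, rose most (log2 fold change 4.48, adjusted p = 1.38e-05), at 2569.9 to 3314 in entinostat and 41.4 to 638 in vehicle tumours. Nmnat3, an NAD-synthesising enzyme, had a log2 fold change -1.87 (adjusted p = 3.73e-04), the largest fall. In NSG mice limma called 0 of 55 partner genes, and 1 had an unadjusted p under 0.05. Macrophage and fibroblast markers rose in the same B6 tumours, as given above.

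**Figure D5:**
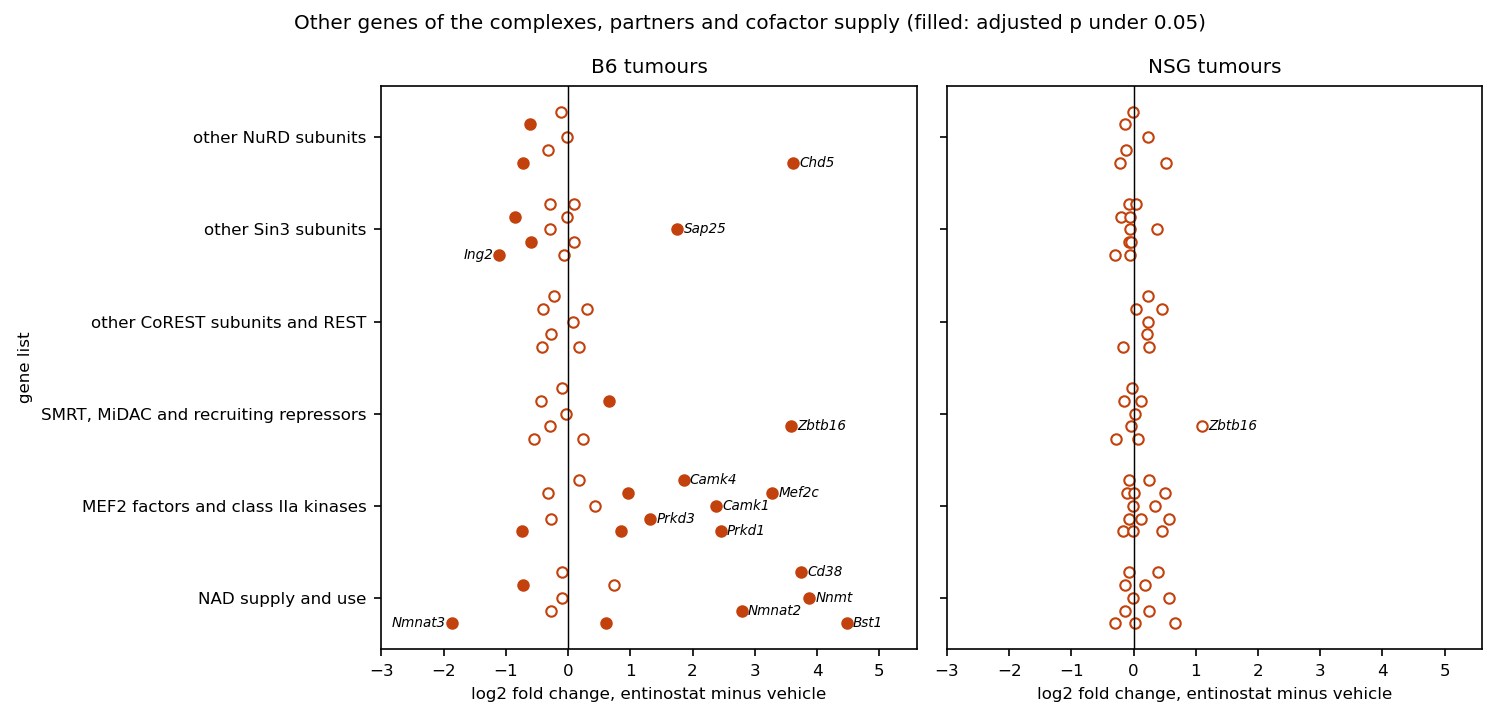
Log2 fold change of entinostat over vehicle for the partner genes, by list, in B6 (left) and NSG (right) mice, filled where the adjusted p was under 0.05 and named where the size was at least 1. B6 points reach 4.48 for Bst1, and no NSG point is filled.

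In NSG mice, vehicle tumours differed from baseline tumours for 5 of the 37 genes (13.5%), where 13% of all genes were called. Of these, 3 were higher (7.53% of all genes) and 2 lower (5.5%). Hdac3 was at 4056, 4187, 4427, 5406 and 5323 in vehicle and 2768, 2956, 2512, 3235 and 2936 in baseline tumours, without overlap (log2 fold change 0.69, SE 0.12, adjusted p = 0.0151). Sap18 was at 3021, 3069, 4399, 4387 and 4261 in vehicle and 1870.4, 2315, 1755, 2228 and 2053 in baseline tumours, without overlap (log2 fold change 0.89, SE 0.21, adjusted p = 0.0218), and its copy Sap18b at 706 to 1137 and 348 to 517. Sin3b rose by 0.71 on the log2 scale with overlap (adjusted p = 0.0452). Chd3 was at 3034, 3592, 2803, 3364 and 2725 in vehicle and 6324, 4298, 5827, 4369 and 6564 in baseline tumours (log2 fold change -0.80, SE 0.24, adjusted p = 0.0408), and Rcor1 at 3005, 3709, 2564, 2149 and 2232 in vehicle and 5197, 4402, 4754, 4101 and 4666 in baseline tumours (log2 fold change -0.78, SE 0.21, adjusted p = 0.0286). Both fell, without overlap. The share of ribosomal protein genes was 11.0 to 17.1% in these vehicle and 5.43 to 10.5% in these baseline tumours, and the summed fibroblast markers ran from 49644 to 111479 and from 145626 to 336644. Their part in the result was not tested. The count rested on single tumours: it was 0 without NSG_Baseline_303, NSG_Baseline_305 or NSG_Non-Treatment_326, 1 without NSG_Non-Treatment_323, 2 without NSG_Baseline_320, 8 without NSG_Non-Treatment_302 or NSG_Non-Treatment_308, and 10 without NSG_Entinostat_319. Leaving out 1 tumour at a time, the share of all genes called ran from 0 to 20.9%, lowest without NSG_Baseline_303 and highest without NSG_Entinostat_319. With equal totals 2 were higher and 5 lower (18.9% of the 37, against 17% of all genes), and the share of higher calls over all genes went from 57.8% to 20.3%. Entinostat against baseline tumours, which share the baseline tumours of this contrast, gave 0 of 37 by limma, where 0.406% of all genes were called. At an unadjusted p under 0.05 the numbers were 6 of the 37 and 4501 of all 17752 genes. The host difference of vehicle minus baseline was called for 0 of the 37 and 0% of all genes, with 9 and 2721 at an unadjusted p under 0.05.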

How the data were processed

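RNA-seq values of 30 tumours were used. The values were signal per gene, deposited by the authors as normalized counts of DESeq2, with a separate normalization for each host. STAR, DESeq2 and build mm10 are named, without versions, in the submitters' processing notes. Per the labels' protocols the libraries were stranded mRNA libraries. Whole reads could not be recovered, so tests of counts were not run. From these, log2(value + 1) was fitted with limma 3.58.1 (R 4.3.3; mean-variance trend, robust), with the 3 groups of each host in a single model. A gene entered the test when 4 or more B6 libraries, or 5 or more NSG libraries, reached 10, with Benjamini-Hochberg adjustment over all of them. Fold changes are on the log2(value + 1) scale, which understates the change of low genes such as Hdac9. The scripts were tested on simulated data. Values per tumour are given for Hdac1, Hdac2, Hdac3 and Hdac8, for genes called with at least a 2-fold change, for genes called in the host difference, and for others where a result turns on them. Partner lists give counts and the largest called gene in each direction. The members and lists were chosen with earlier results of these data known. T cell receptor and exome libraries were not used here. Alternatives covered the pseudocount, filter, scaling, variance model, groups fitted, tumour weights and each tumour left out.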

Additional observations from a re-analysis of the deposited data

Results flagged for a closer look

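Of 222 groups of 4 to 6 tumours, 7 held a value set apart from the rest of its group by Dixon's test, and chance gives about 1 in 20. Hdac2 was at 2681 in B6 baseline tumour 416, below 3662 to 3905 in the other baseline tumours. Sirt6 was at 81.8 in B6 vehicle tumour 424, below 224 to 343. Sin3b was high in B6 vehicle tumour 410 at 3301, in B6 entinostat tumour 421 at 2953 and in NSG_Baseline_304 at 3184. In NSG entinostat tumours Hdac2 was at 3294 in NSG_Entinostat_319, above 2326 to 2534, and Hdac3 at 3263 in NSG_Entinostat_327, below 3962 to 4172.

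The entinostat effect differed between hosts, by the test of the difference itself, for 13 of the 37 genes (35.1%), where 43.5% of all genes were called. On the log2 scale, B6 minus NSG, Hdac1 differed by -0.57, Hdac5 by 0.91, Hdac9 by 2.57, Hdac6 by -0.89, Sirt2 by 1.86, Mta1 by -0.67, Mta2 by -0.95, Mta3 by -0.66, Rbbp7 by -1.08, Sap30 by -1.32, Rcor1 by -1.42, Rcor2 by -2.17 and Ncor1 by -0.75. The dose and tumour volumes in NSG mice are not given, so host and handling cannot be told apart.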

How the results depend on the processing

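No paired analysis was possible because the tumour numbers in the labels are not shared between the groups compared. Of 6562 recomputed values, 0 reversed direction among called results. The 6562 include counts, and results called in neither fit, for which no reversal could be recorded. Leaving out 1 tumour at a time, 15 to 18 of the 37 genes were called for entinostat minus vehicle in B6 mice. The share of all genes called ran from 51.4 to 57.6%. For entinostat minus baseline the number ran from 14 to 19, and the share of all genes from 47.9 to 58.7%. In NSG mice the number ran from 0 to 4 for entinostat minus baseline (4, with 5.32% of all genes, without NSG_Entinostat_327). For vehicle minus baseline it ran from 0 to 10 (0 to 20.9% of all genes). The host difference in the entinostat effect ran from 11 to 17 (40.4 to 46.3% of all genes). That in vehicle minus baseline ran from 0 to 1 (1, with 2.35% of all genes, without B6 vehicle tumour 424). The called pairs ran from 0 to 4. With tumour weights 3 of the 37 (8.11%) and 16.2% of all genes were called for B6 vehicle minus baseline, 4 (10.8%) and 12.2% for NSG entinostat minus baseline, and 17 (45.9%) and 37.4% for NSG vehicle minus baseline. The same weights gave 20 (54.1%) and 59.8% for the host difference in the entinostat effect and 15 (40.5%) and 35.7% for that in vehicle minus baseline. Quantile scaling gave 1 (1.78% of all genes) for NSG entinostat minus baseline and 8 (15.1% of all genes) for NSG vehicle minus baseline. Fitting only the groups compared gave 1 (3.33% of all genes) and 9 (19.1%). For NSG vehicle minus baseline, no filter gave 3 (4.75% of all genes) and a fit with no trend or robust step gave 3 (10.3%). Equal totals gave 21 for the host difference in the entinostat effect (47.1% of all genes). The cause of these changes was not tested. Low values such as those of Hdac9 are limited by depth, which was lowest at 11.0 M reads.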

Other observations

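Single tumours drew attention after their values were seen. B6 vehicle tumour 402 had Hdac9 at 63.9, Rcor2 at 204 and Sap30 at 629.7, the vehicle values nearest to the entinostat tumours. Its Sirt2 value of 967 was also the vehicle value nearest to them, but lay far below the lowest entinostat value of 2181. B6 entinostat tumour 421 had the lowest entinostat value of 13 of the 37 genes (Hdac1, Hdac6, Hdac8, Hdac9, Sirt1, Mta2, Chd4, Sin3a, Rcor1, Kdm1a, Ncor1, Tbl1x and Tbl1xr1) and the highest of 8 (Hdac3, Hdac5, Sirt5, Sirt7, Mta3, Sin3b, Sap18 and Sap30). Tumour 413 was lowest for 12 genes and tumour 418 highest for 13, so tumour 421 did not stand alone in this. In NSG mice, NSG_Entinostat_312 and NSG_Entinostat_327 had the highest Chd3, 6386 and 7417, against 2811 to 3603 in the other entinostat tumours, and the lowest ribosomal protein shares of that group, 9.95% and 7.81%.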
